A study of Arabidopsis thaliana with 18 samples.

Results

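Aquaporins are membrane channels that let water, and in some cases other small molecules, pass along their gradient. Plants carry a large family of them, in which the PIP proteins sit mainly in the plasma membrane and the TIP proteins mainly in the tonoplast, the membrane of the vacuole. The transcripts described here are those of the 5 PIP1 genes of Arabidopsis and of 5 tonoplast genes of the TIP1 and TIP2 groups. These 10 genes were picked by gene identifier from the 32833 genes of each deposited table, with earlier results of these data known. All of them were present in every table. TIP1;3 also belongs to the TIP1 group but was not among them, and it is counted below with the other aquaporins. The names used below are alternative names that RefSeq gives: PIP1A, PIP1B, PIP1C, PIP1E and PIP1D for PIP1;1 to PIP1;5 in that order, gamma-TIP1 and gamma-TIP2 for TIP1;1 and TIP1;2, and delta-TIP1, delta-TIP2 and delta-TIP3 for TIP2;1, TIP2;2 and TIP2;3.

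The study asked how the loss of AtBro1 (AT1G73390), a gene for a Bro1-like domain protein, bears on the early response of seedlings to abscisic acid (ABA), the plant hormone of drought. Whole seedlings of the Columbia (Col-0) ecotype aged 2 weeks, grown on half-strength Murashige and Skoog medium with sucrose, were either wild type (WT) or were homozygous for bro1-1, a T-DNA insertion (SALK_204462C) within AtBro1. Each genotype was sampled as mock, after 2 h and after 4 h of 100 µM ABA, with 3 biological replicates in each of the 6 groups and 18 RNA-seq libraries in all. The mutant was represented by 1 insertion line, and 1 mock group per genotype, which the study describes as 0 h of ABA, served both times, so that ABA and elapsed time cannot be told apart and the contrasts of 2 h and 4 h with mock share their controls.

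A vacuole fills most of a mature plant cell, and its TIP channels are much more permeable to water than the plasma membrane usually is, which lets the cell buffer sudden changes in its water content. Gamma-TIP1 and gamma-TIP2 are vacuolar water channels of vegetative tissue, while delta-TIP1 and delta-TIP3 are also known to pass ammonia. PIP1 proteins reach the plasma membrane together with PIP2 partners, as was first shown in maize. PIP1B is known for its part in water uptake and in the passage of carbon dioxide, and PIP1E for the passage of hydrogen peroxide. ABA closes stomata, and in many plants the transcripts of aquaporins move under drought or ABA in different directions for different members.

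The 10 genes are spread over all 5 chromosomes. In the RefSeq annotation of the TAIR10.1 assembly, PIP1A (AT3G61430) lies on chromosome 3 from 22733243 to 22735394, PIP1B (AT2G45960) on chromosome 2 from 18910081 to 18911982, PIP1C (AT1G01620) on chromosome 1 from 225665 to 227543, PIP1E (AT4G00430) on chromosome 4 from 185285 to 187680 and PIP1D (AT4G23400) on chromosome 4 from 12220641 to 12222468. Gamma-TIP1 (AT2G36830) lies on chromosome 2 from 15445294 to 15446621, gamma-TIP2 (AT3G26520) on chromosome 3 from 9722443 to 9723904, delta-TIP1 (AT3G16240) on chromosome 3 from 5505360 to 5507050, delta-TIP2 (AT4G17340) on chromosome 4 from 9698940 to 9700472 and delta-TIP3 (AT5G47450) on chromosome 5 from 19248249 to 19249622. PIP1C, PIP1E, gamma-TIP2 and delta-TIP3 are on the minus strand. The PIP1 transcripts had 3 to 5 exons and the TIP transcripts 2 or 3.

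Aquaporins fold around a pore lined by conserved NPA boxes, and each of the 10 coding sequences held 2 of them. The first box is printed for the 3 pairs of relatives whose TPM ratios are described further on. It shows how alike the coding bases of a pair are at the core of the pore. The NPA codons are the same in gamma-TIP2 and gamma-TIP1, which differ only in the bases on either side, and differ within each of the other pairs. Every box encodes the same amino acids (asparagine, proline, alanine), so these codon differences do not change the protein there. The sequences are RefSeq coding sequence (TAIR10.1), 5′ to 3′ on the coding strand, with the codons of the NPA box in capitals.
PIP1C: ggtgggcacataAACCCAGCGgtgacattt
PIP1E: ggtggacacatcAACCCTGCTgtaacattc
gamma-TIP2: ggtggccacgttAACCCTGCCgttaccttc
gamma-TIP1: ggtggacacgttAACCCTGCCgtcactttc
delta-TIP1: ggtggccatgtgAACCCAGCCgtcactttt
delta-TIP2: ggcggacaccttAACCCCGCCgtgacactc
Over the whole coding sequence, the identity was 85.0% between PIP1C and PIP1E, 81.1% between gamma-TIP1 and gamma-TIP2, 71.4% between delta-TIP1 and delta-TIP2 and 81.5% between delta-TIP2 and delta-TIP3. The longest stretch of identical transcript sequence between any 2 of the 10 genes was 41 bases, between PIP1A and PIP1B. The deposited expected counts of the 10 genes were whole numbers in all 180 values, whereas 1.77 to 2.06% of all values of a library were not whole, and they ranged from 50 to 56018 counts.

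The libraries held 15568034 to 17853178 expected counts. Levels are given in TPM, the RSEM measure of a gene's share of all transcripts, which is corrected for transcript length and library size. AtBro1 lay between 11.2 and 18.5 TPM in mock-treated WT and between 8.02 and 10.4 TPM in mock-treated bro1-1, and after 4 h of ABA between 243 and 391 TPM in WT and between 104 and 125 TPM in bro1-1. The difference between the genotypes was called at 2 h (log2 difference -1.38, adjusted p = 0.0440) and not in mock (-0.45, adjusted p = 1.00) or at 4 h (-1.51, adjusted p = 0.199), and transcript of the interrupted gene was present in every bro1-1 library. The ABA marker RD29B went from at most 0.92 TPM in WT mock to at least 110 TPM at 2 h. All 13 root and all 7 leaf mesophyll markers were above 0 in every library. In bulk seedlings, fewer cells of a type and less RNA per cell cannot be told apart. 1 mock library stood apart in each genotype: the summed leaf mesophyll markers were 9366 TPM in WT mock replicate 2 against 31913 and 29775 in replicates 1 and 3, and 11568 TPM in bro1-1 mock replicate 3 against 32064 and 29851 in replicates 1 and 2. These libraries also had the highest gamma-TIP2 and delta-TIP1 levels of their groups, and calls that rest on them are given with and without them.

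In WT mock seedlings the tonoplast channels gamma-TIP2 and delta-TIP1 were by far the most abundant of the 10 transcripts. Gamma-TIP2 stood at 2187, 4015 and 2474 TPM in replicates 1 to 3 (mean 2892 ± 983, SD, n = 3) and delta-TIP1 at 1199, 2247 and 1357 TPM (1601 ± 565). Gamma-TIP2 was among the 35 most abundant transcripts of all genes in each of the 3 libraries, and in replicate 2 it was the 11th. PIP1B followed at 758 ± 163 TPM, then PIP1C at 514 ± 93.1, PIP1A at 326 ± 76.4, gamma-TIP1 at 283 ± 51.5 and PIP1D at 223 ± 33.5 TPM. Delta-TIP2 at 126 ± 66.6 and PIP1E at 118 ± 35.9 TPM were close to the bottom, and delta-TIP3 at 26.3 ± 21.4 TPM was the least abundant. The ranges of neighbours in this order overlapped between gamma-TIP2 and delta-TIP1, and from PIP1A down to PIP1E, while the steps from delta-TIP1 to PIP1B, PIP1B to PIP1C, PIP1C to PIP1A and PIP1E to delta-TIP3 were free of overlap. The bro1-1 mock seedlings gave the same order of mean levels.

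**Figure D1:**
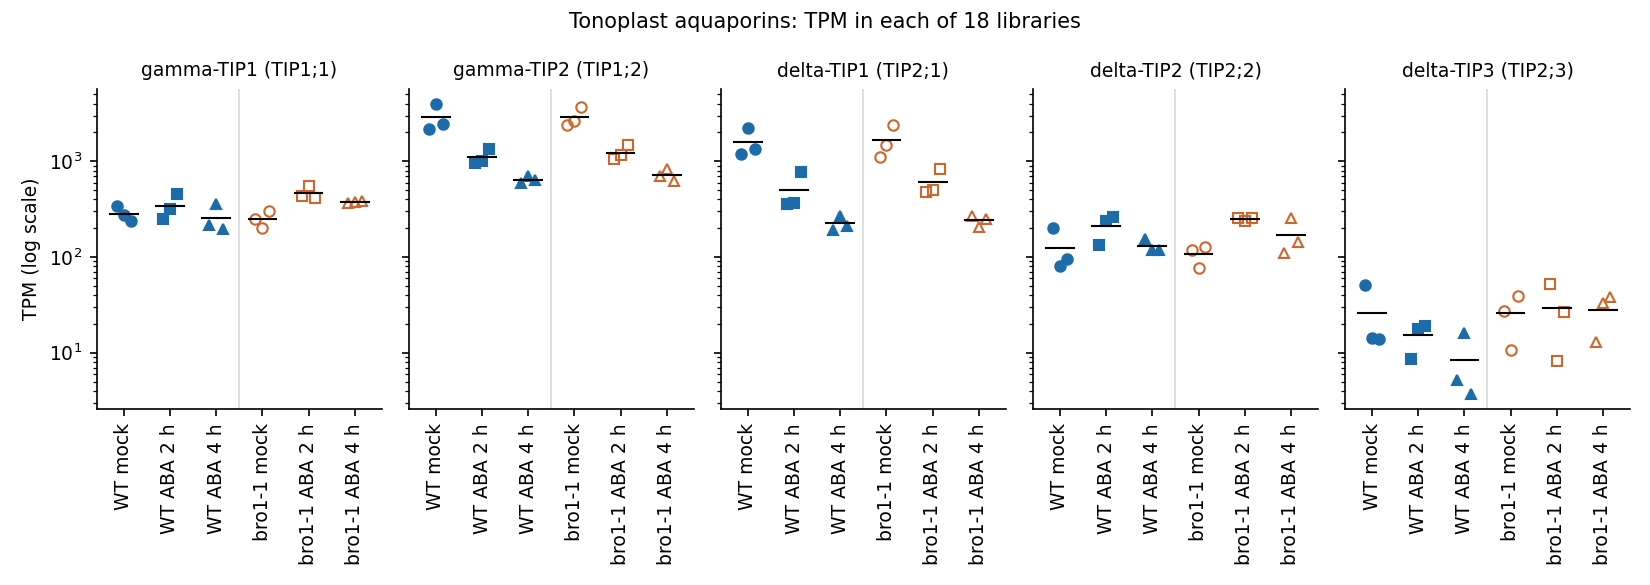
TPM (log scale) of the 5 tonoplast aquaporins in each of the 18 libraries, by genotype (filled, WT; open, bro1-1) and treatment, with the group mean as a black line. Gamma-TIP2 and delta-TIP1 fall from mock to 2 h to 4 h in both genotypes, while gamma-TIP1 lies between 195 and 554 TPM, delta-TIP2 between 76.8 and 262 TPM, and delta-TIP3 scatters from 3.70 to 52.2 TPM.

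After 4 h of ABA, delta-TIP1 (TIP2;1) had the lowest log2 fold change of the 10 genes in both genotypes. Its level in WT was 356, 366 and 773 TPM at 2 h and 191, 271 and 211 TPM at 4 h, so that every treated library lay below every mock library. Fold changes are those of counts scaled by TMM factors (a correction for composition), which were 1.07 to 1.13 in WT mock and 0.892 to 0.946 in WT ABA 2 h libraries, and TPM without this correction shows larger falls than the fit at 2 h. The log2 fold change was -1.37 at 2 h (SE 0.406, adjusted p = 0.0442) and -2.62 at 4 h (SE 0.303, adjusted p = 0.000866) by the quasi-likelihood test of edgeR, adjusted over all genes tested. Without WT mock replicate 2 it was -1.12 at 2 h (adjusted p = 0.0735) and -2.37 at 4 h (adjusted p = 0.000465). In bro1-1 the level went from 1116, 1472 and 2419 TPM in mock to 481, 504 and 836 at 2 h and 268, 207 and 252 at 4 h. The log2 fold change there was -1.32 at 2 h (SE 0.321, adjusted p = 0.0145) and -2.72 at 4 h (SE 0.292, adjusted p = 0.000289), and without bro1-1 mock replicate 3 it was -1.03 (adjusted p = 0.0225) and -2.44 (adjusted p = 0.000123). At 4 h the call stood with and without the libraries that stood apart. The summed leaf mesophyll markers were also low at 4 h, at 12594 to 17753 TPM in WT and 13377 to 19775 TPM in bro1-1, and their part in the TIP levels was not tested.

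Gamma-TIP2 (TIP1;2) also fell in both genotypes at both times. WT libraries gave 949, 1003 and 1353 TPM at 2 h and 595, 706 and 636 TPM at 4 h. The log2 fold change was -1.09 at 2 h (SE 0.320, adjusted p = 0.0426) and -1.95 at 4 h (SE 0.319, adjusted p = 0.00383). In bro1-1 the mock libraries at 2418, 2663 and 3659 TPM were followed by 1049, 1153 and 1478 TPM at 2 h and 697, 825 and 623 TPM at 4 h. These are log2 fold changes of -1.11 (SE 0.244, adjusted p = 0.00951) and -1.95 (SE 0.280, adjusted p = 0.00114). In neither genotype did mock and treated libraries overlap. Without WT mock replicate 2 the values in WT were -0.85 (adjusted p = 0.0347) at 2 h, which is within the fold threshold, and -1.70 (adjusted p = 0.00142) at 4 h, and without bro1-1 mock replicate 3 those of bro1-1 were -0.98 (adjusted p = 0.0111) and -1.83 (adjusted p = 0.00116).

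Gamma-TIP1 (TIP1;1), the closest relative of gamma-TIP2, was not called lower in any ABA contrast. WT libraries held 339, 275 and 237 TPM in mock, 247, 316 and 457 at 2 h and 217, 355 and 195 at 4 h, which overlap throughout. The log2 fold changes in WT were 0.55 at 2 h (SE 0.292, adjusted p = 0.203) and 0.03 at 4 h (SE 0.250, adjusted p = 0.934). In bro1-1 gamma-TIP1 rose from 247, 200 and 299 TPM in mock to 434, 554 and 414 at 2 h, a log2 fold change of 1.06 (SE 0.203, adjusted p = 0.00552). At 4 h the bro1-1 libraries were close together at 370, 372 and 384 TPM, all above mock, with a log2 fold change of 0.66 (SE 0.172, adjusted p = 0.0175) that does not reach the fold threshold. The rise at 2 h was just past that threshold, and it was 0.96 (adjusted p = 0.0270) without bro1-1 mock replicate 2 and 0.86 (adjusted p = 0.0179) without bro1-1 ABA 2 h replicate 2.

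Delta-TIP2 (TIP2;2) had a higher mean at 2 h than in mock, and passed the test in bro1-1. The WT mock libraries, 202, 80.2 and 94.4 TPM, overlapped with the 2 h libraries at 133, 238 and 262 TPM, and the log2 fold change of 1.02 (SE 0.434) had an adjusted p of 0.123. In bro1-1 it rose from 117, 76.8 and 127 TPM to 258, 239 and 256 TPM, a log2 fold change of 1.37 (SE 0.177, adjusted p = 0.000962). At 4 h the level was 154, 119 and 117 TPM in WT and 111, 256 and 145 TPM in bro1-1, with log2 fold changes from mock of 0.25 (SE 0.367, adjusted p = 0.638) and 0.77 (SE 0.347, adjusted p = 0.113). The difference between the genotypes in the response at 2 h was 0.36 on the log2 scale (95% interval -0.62 to 1.34, adjusted p = 0.962).

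Delta-TIP3 (TIP2;3), a tonoplast channel known mainly from roots, was the lowest of the 10 and scattered widely within groups. Its levels were 51.0, 14.1 and 13.9 TPM in WT mock, 8.67, 17.8 and 19.1 at 2 h and 5.17, 16.1 and 3.70 at 4 h. In bro1-1 they were 27.4, 10.7 and 39.0 TPM in mock, 52.2, 8.28 and 26.9 at 2 h and 13.0, 33.1 and 38.0 at 4 h. No ABA contrast passed by edgeR. The log2 fold changes were -0.52 (SE 0.578, adjusted p = 0.536) and -1.52 (SE 0.670, adjusted p = 0.122) in WT and 0.31 (SE 0.605, adjusted p = 0.712) and 0.21 (SE 0.476, adjusted p = 0.749) in bro1-1. In WT, leaving out mock replicate 1 changed the value at 2 h to 0.42 (adjusted p = 0.429) and that at 4 h to -0.60 (adjusted p = 0.426), while leaving out WT ABA 4 h replicate 2 gave -2.31 at 4 h (adjusted p = 0.0502). DESeq2 called the WT value at 4 h (-1.55, adjusted p = 0.0401). The libraries with the most delta-TIP3 were those with the most root marker transcript, since the 13 root markers summed to 121 TPM in WT mock replicate 1, 108 in bro1-1 mock replicate 3 and 109 in bro1-1 ABA 2 h replicate 1. The lowest delta-TIP3 level, in WT ABA 4 h replicate 3, came with the lowest root marker sum, 28.7 TPM. Their part in the delta-TIP3 levels was not tested.

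**Figure D2:**
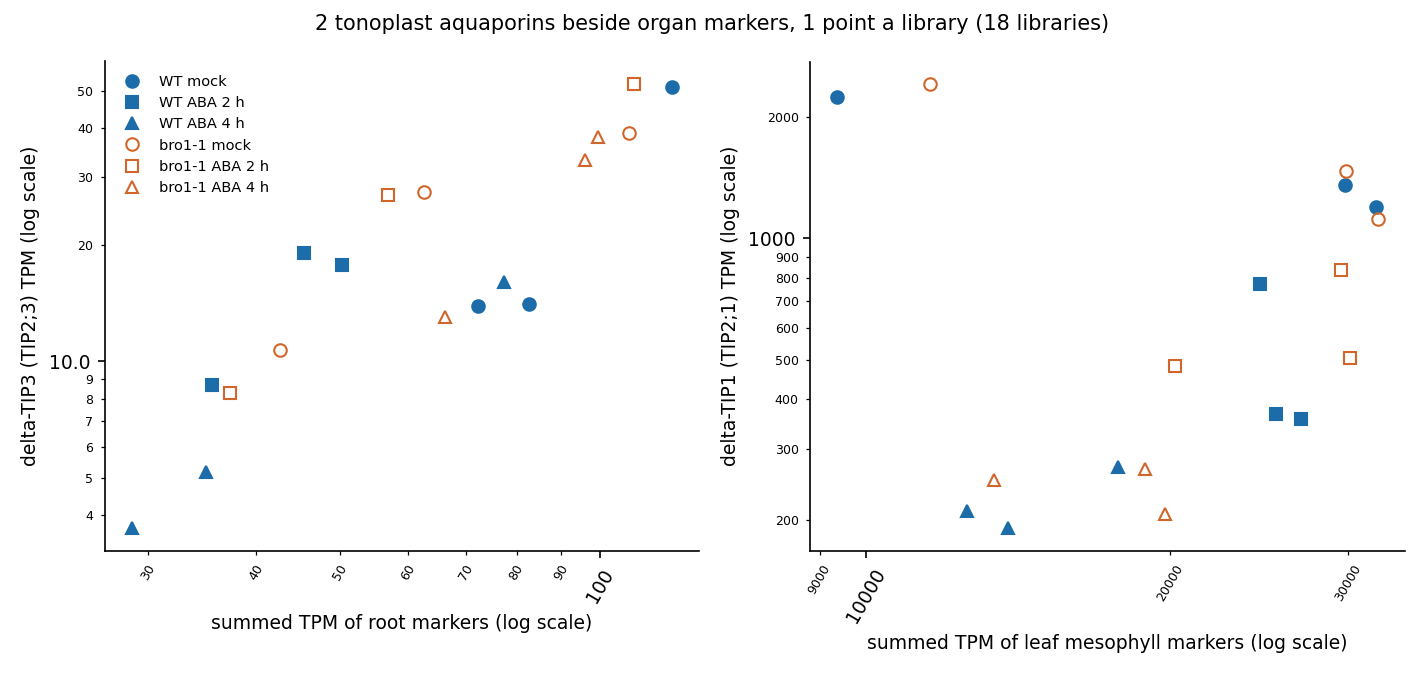
Left, TPM of delta-TIP3 against the summed TPM of 13 root markers; right, TPM of delta-TIP1 against the summed TPM of 7 leaf mesophyll markers, 1 point a library (filled, WT; open, bro1-1; all axes log). Delta-TIP3 runs from 3.70 TPM in the library with the lowest root sum (28.7) to 51.0 TPM in that with the highest (121), and the mock libraries with leaf sums of 9366 and 11568 TPM hold the highest delta-TIP1 levels, 2247 and 2419 TPM.

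Among the PIP1 genes, PIP1E (PIP1;4) was called higher in both genotypes at both times. Its WT levels were 143, 76.6 and 133 TPM in mock, 291, 346 and 263 at 2 h and 304, 329 and 374 at 4 h, with every treated library above the mock range. The log2 fold change was 1.62 at 2 h (SE 0.298, adjusted p = 0.00808), a 3.07-fold rise, and 1.73 at 4 h (SE 0.312, adjusted p = 0.00574), a 3.32-fold rise. In bro1-1 it rose from 96.4, 97.2 and 78.8 TPM in mock to 387, 434 and 351 at 2 h and 417, 399 and 485 at 4 h. The log2 fold changes there were 2.22 (SE 0.207, adjusted p = 0.000225) and 2.28 (SE 0.200, adjusted p = 0.000117), or 4.65-fold and 4.86-fold. WT mock replicate 2 had the lowest PIP1E of its group, and without it the WT values were 1.36 (adjusted p = 0.00187) and 1.47 (adjusted p = 0.00274). From 2 h to 4 h the log2 fold change was 0.08 (SE 0.182, adjusted p = 0.804) in WT and 0.03 (SE 0.176, adjusted p = 0.943) in bro1-1.

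PIP1D (PIP1;5) fell at 4 h in both genotypes. In WT it stood at 193, 259 and 218 TPM in mock, 74.4, 86.8 and 128 at 2 h and 72.3, 59.0 and 95.1 at 4 h. The fall at 4 h had a log2 fold change of -1.34 (SE 0.253, adjusted p = 0.00693), while that at 2 h, -0.92 (SE 0.254, adjusted p = 0.0350), passed the adjusted p and not the fold threshold. Without WT mock replicate 2 the value at 2 h was -0.86 and passed neither (adjusted p = 0.0573), and that at 4 h was -1.27 (adjusted p = 0.0118). In bro1-1 it stood at 193, 170 and 241 TPM in mock, 95.5, 77.9 and 110 at 2 h and 48.0, 85.5 and 70.6 at 4 h. The log2 fold changes were -0.96 (SE 0.156, adjusted p = 0.00258) and -1.49 (SE 0.249, adjusted p = 0.00233). Treated and mock libraries did not overlap in either genotype.

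PIP1B (PIP1;2), the most abundant PIP1, had a lower mean at 4 h than at 2 h in both genotypes, and was called lower in WT alone. WT gave 696, 942 and 635 TPM in mock, 508, 693 and 981 at 2 h and 386, 423 and 343 at 4 h. The log2 fold change from mock was 0.24 (SE 0.312, adjusted p = 0.599) at 2 h and -0.77 (SE 0.228, adjusted p = 0.0374) at 4 h, short of the fold threshold, and that from 2 h to 4 h was -1.04 (SE 0.262, adjusted p = 0.0498), at the edge of both thresholds. That last call was lost when WT ABA 2 h replicate 2 or 3 or any of the WT ABA 4 h replicates was left out (adjusted p = 0.0799 to 0.150). In bro1-1 the levels were 588, 705 and 924 TPM in mock, 781, 1041 and 950 at 2 h and 459, 580 and 621 at 4 h, with a log2 difference of -0.85 (SE 0.224, adjusted p = 0.0982) from 2 h to 4 h.

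PIP1C (PIP1;3) and PIP1A (PIP1;1) were called in no contrast with all libraries. PIP1C, the closest relative of PIP1E, stood at 415, 600 and 528 TPM in WT mock and at 268, 343 and 300 TPM at 4 h, a log2 fold change of -0.59 (SE 0.223, adjusted p = 0.0784). The same contrast in bro1-1, from 405, 453 and 585 TPM to 304, 289 and 299 TPM, gave -0.62 (SE 0.188, adjusted p = 0.0310), which is within the fold threshold. PIP1A ranged from 239 to 559 TPM in WT without a test passed, the log2 fold changes being 0.70 (SE 0.307, adjusted p = 0.132) at 2 h and 0.35 (SE 0.249, adjusted p = 0.322) at 4 h. In bro1-1 PIP1A was above its mock levels of 269, 224 and 376 TPM in every treated library, at 406, 479 and 495 TPM at 2 h and 458, 670 and 457 TPM at 4 h. Its log2 fold changes of 0.81 (SE 0.198, adjusted p = 0.0145) and 0.95 (SE 0.267, adjusted p = 0.0228) passed the adjusted p and not the fold threshold. Without bro1-1 mock replicate 3 the value at 4 h was 1.11 (adjusted p = 0.0143), past both.

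**Figure D3:**
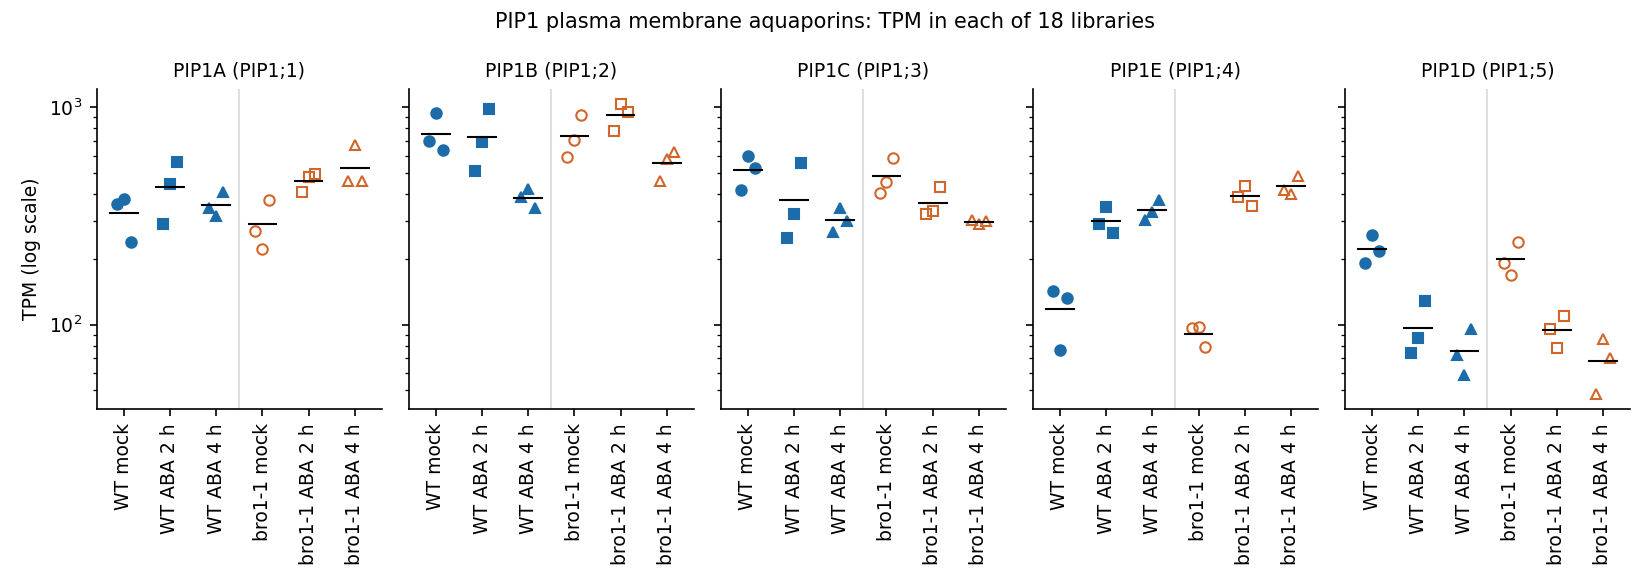
TPM (log scale) of the 5 PIP1 aquaporins in each of the 18 libraries, by genotype (filled, WT; open, bro1-1) and treatment, with the group mean as a black line. PIP1E goes from 76.6 to 143 TPM in WT mock to 304 to 374 TPM at 4 h, while PIP1D goes from 193 to 259 TPM down to 59.0 to 95.1 TPM.

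Counted together, with a call set at an adjusted p under 0.05 and a log2 fold change beyond 1 in either direction, 3 of the 10 genes were called in WT at 2 h (PIP1E higher, gamma-TIP2 and delta-TIP1 lower) where 17.7% of all 19725 genes tested were called, 10.9% higher and 6.8% lower. At 4 h it was 4 of 10 (PIP1E higher, PIP1D, gamma-TIP2 and delta-TIP1 lower) against 20.9% of 19880 genes, 13.5% higher and 7.41% lower. In bro1-1 it was 5 of 10 at 2 h (PIP1E, gamma-TIP1 and delta-TIP2 higher, gamma-TIP2 and delta-TIP1 lower) against 21.9% of 19756 genes, 13.4% higher and 8.45% lower, and 4 of 10 at 4 h (PIP1E higher, PIP1D, gamma-TIP2 and delta-TIP1 lower) against 23.8% of 19958, 15.5% higher and 8.24% lower. From 2 h to 4 h the calls were PIP1B in WT, where 3.67% of genes were called and 1.55% lower, and delta-TIP1 in bro1-1, where 1.06% were called and 0.505% lower. By adjusted p alone, with no fold threshold, 4 genes passed in WT at 2 h (26.1% of all genes did), 5 at 4 h (31.2%) and 2 from 2 h to 4 h (7.76%), and in bro1-1 7 at 2 h (40.0%), 7 at 4 h (40.6%) and 1 from 2 h to 4 h (1.43%). The median log2 fold change of the 10 genes was 0.04 at 2 h and -0.68 at 4 h in WT, beside -0.04 and -0.02 over all genes tested, and 0.39 and -0.07 in bro1-1, beside -0.04 and -0.01. The groups of 3 libraries did not overlap for 4 of the 10 genes at 2 h and 6 at 4 h in WT, where 46.8% and 50.1% of all genes did not, and for 7 at either time in bro1-1, where 55.2% and 55.1% did not.

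The WT count at 2 h ran from 1 to 5 when 1 library was left out. It was 1 (PIP1E alone) without WT mock replicate 2, WT mock replicate 3, WT ABA 2 h replicate 1 or WT ABA 2 h replicate 2, and 5 without WT mock replicate 1, when PIP1D and delta-TIP2 were added. In these 4 cases delta-TIP1 had an adjusted p of 0.0735, 0.0924, 0.139 and 0.159 in turn, and gamma-TIP2, after the first, of 0.0946, 0.145 and 0.166. Gamma-TIP2 was also lost without WT ABA 2 h replicate 3 (adjusted p = 0.0578). The bro1-1 count at 2 h was 3 without bro1-1 ABA 2 h replicate 1, when gamma-TIP2 was at -0.99 (adjusted p = 0.0302) and delta-TIP1 at -1.16 (adjusted p = 0.0502), and 3 without replicate 2, when delta-TIP1 was at -1.24 (adjusted p = 0.0570) and gamma-TIP1 was within the fold threshold. The delta-TIP1 call from 2 h to 4 h in bro1-1 was lost when bro1-1 ABA 2 h replicate 2 or 3 or any of the bro1-1 ABA 4 h replicates was left out (adjusted p = 0.0793 to 0.125). The counts at 4 h against mock stayed at 4 or 5 in both genotypes whichever library was left out. Over all genes, these fits at 4 h called 3105 to 4626 in WT and 4263 to 4932 in bro1-1.

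**Figure D4:**
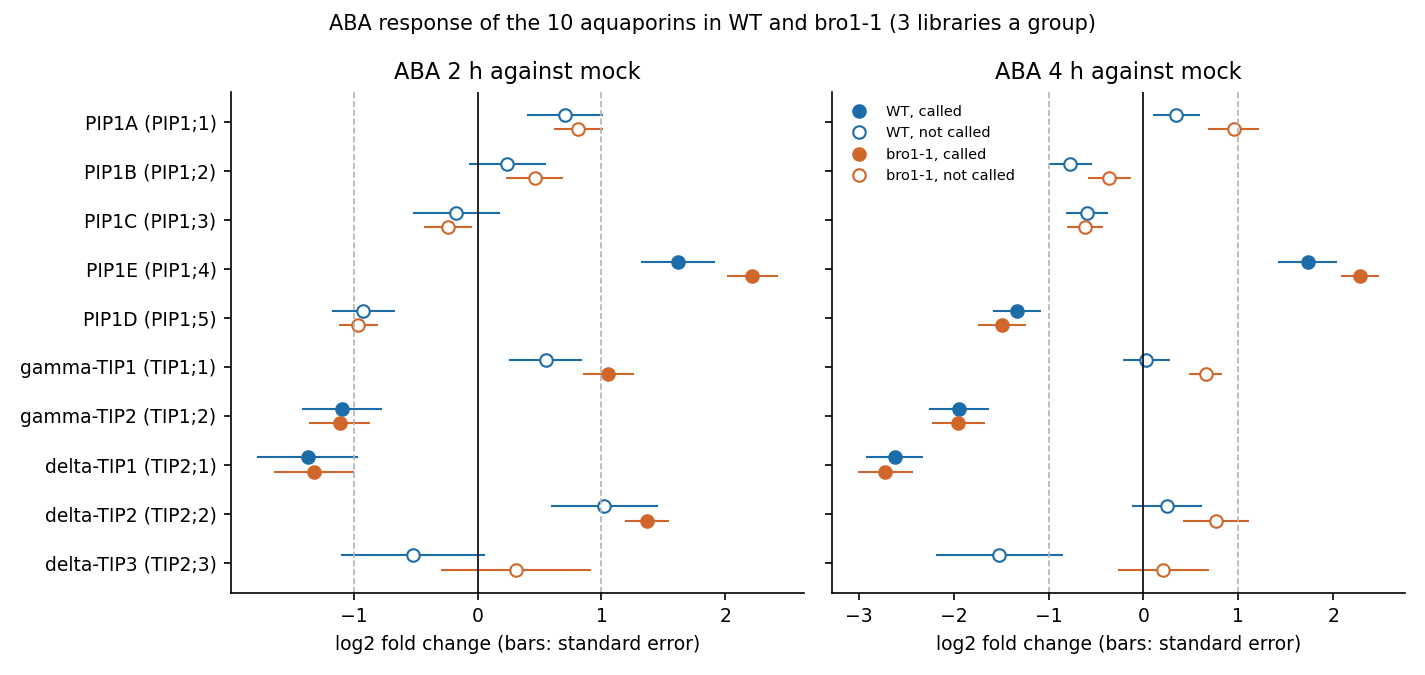
Log2 fold change of each of the 10 aquaporins at 2 h (left) and 4 h (right) of ABA against mock, in WT (blue) and bro1-1 (orange), with bars for 1 standard error, filled points for calls and dashed lines at the fold threshold. PIP1E lies to the right (1.62 and 1.73 in WT) and delta-TIP1 furthest to the left at 4 h (-2.62 in WT, -2.72 in bro1-1), with the genotypes side by side.

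The sums over the 2 groups of genes are given as a description. The 5 TIP genes summed to 4928 ± 1477 TPM in WT mock, 2166 ± 617 at 2 h and 1264 ± 176 at 4 h (SD, n = 3), and in bro1-1 to 4964 ± 1390, 2581 ± 383 and 1531 ± 141 TPM. In mock replicates 1 to 3 this sum was 3979, 6630 and 4176 TPM in WT and 3926, 4422 and 6543 TPM in bro1-1. The highest value of each genotype came from the library with the low leaf markers. The PIP1 sum was 1940 ± 278, 1932 ± 536 and 1455 ± 73.4 TPM in WT and 1802 ± 353, 2232 ± 207 and 1881 ± 174 TPM in bro1-1. The TIP sum was the larger in mock and the PIP1 sum the larger at 4 h, by their means in both genotypes. The 10 genes together made up 0.687% of all TPM in WT mock and 0.272% at 4 h, and 0.677% and 0.341% in bro1-1. In mock replicates 1 to 3 the share was 0.579, 0.889 and 0.593% in WT and 0.548, 0.607 and 0.875% in bro1-1. PIP1E went from 6.30% of the PIP1 sum in WT mock to 16.5% at 2 h and 23.1% at 4 h, and from 5.23% to 17.6% and 23.2% in bro1-1. By mean level at 4 h, WT seedlings had PIP1E in the fourth place of the 10 and delta-TIP1 in the seventh, with overlapping ranges of all neighbours from the second place to the seventh.

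Ratios of TPM are given for 3 pairs of relatives, chosen with their values known, each of which sets a gene with a negative log2 fold change at 4 h over one with a higher value, so that the common direction of these ratios follows from the choice. The ratio of PIP1C to PIP1E was 2.89 to 7.83 in WT mock and 0.801 to 1.04 at 4 h, and in bro1-1 4.20 to 7.42 and 0.618 to 0.729. The ratio of gamma-TIP2 to gamma-TIP1 was 6.46 to 14.6 in WT mock and 1.99 to 3.27 at 4 h, and in bro1-1 9.78 to 13.3 and 1.62 to 2.22. For delta-TIP1 over delta-TIP2 the WT values were 5.94 to 28.0 in mock and 1.24 to 2.27 at 4 h, and those of bro1-1 9.51 to 19.2 and 0.811 to 2.41. The mock and 4 h ranges did not overlap for any of these 3 ratios in either genotype. The other pairs given here set the gene with the higher log2 fold change at 4 h on top, so their direction also follows from the choice. The ratio of delta-TIP2 to delta-TIP3, its closest relative, was 3.96 to 6.80 in WT mock and 7.43 to 31.7 at 4 h, and in bro1-1 3.26 to 7.17 and 3.82 to 8.56. The ratio of PIP1A to PIP1B, whose coding identity was 83.2%, was 0.377 to 0.516 in WT mock and 0.748 to 1.18 at 4 h, and in bro1-1 0.318 to 0.458 and 0.736 to 1.16. In WT mock the highest ratio of each of the 3 pairs came from replicate 2, the library with the low leaf markers, and the lower ends of the mock ranges, which come from replicate 1, also lay above the 4 h ranges.

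**Figure D5:**
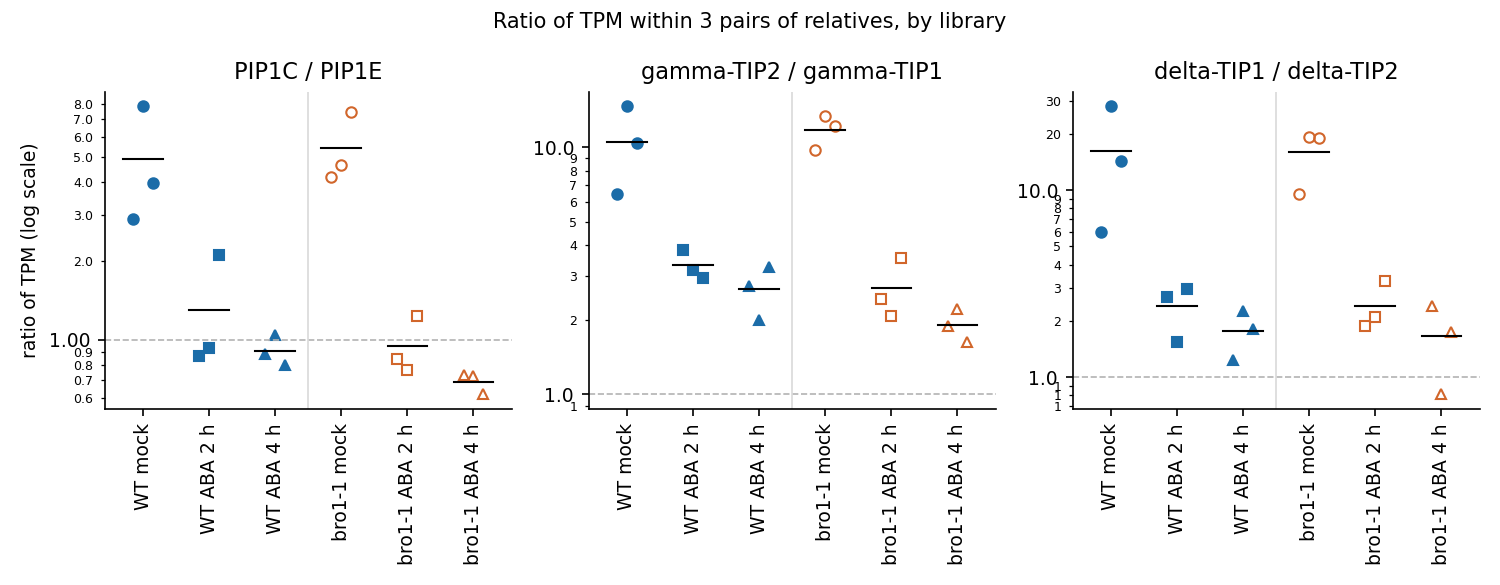
Ratio of TPM (log scale) of PIP1C to PIP1E, gamma-TIP2 to gamma-TIP1 and delta-TIP1 to delta-TIP2 in each of the 18 libraries, by genotype (filled, WT; open, bro1-1) and treatment, with the group mean as a black line and a dashed line at 1. In WT the mean ratios go from 4.90, 10.5 and 16.1 in mock to 0.908, 2.67 and 1.77 at 4 h.

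The same genes were compared between bro1-1 and WT at each time. None of the 10 genes was called in mock, where their log2 differences lay between -0.26 and 0.15 and 0.0153% of all 19610 genes were called. None was called at 2 h (0.0308% of 19501 genes called) or at 4 h (0.0202% of 19801), nor over all time points with time as a covariate (0.0485% of 20637). By unadjusted p under 0.05, edgeR passed 1.19% of all genes in mock, 7.15% at 2 h and 10.1% at 4 h, and of the 10 genes none passed in mock or at 2 h and PIP1B, gamma-TIP1 and delta-TIP3 passed at 4 h. DESeq2 called 6 genes in all in mock, 73 at 2 h and 267 at 4 h, with none of the 10 among them in mock and at 2 h, and delta-TIP3 at 4 h.

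At 4 h the levels of PIP1B and gamma-TIP1 did not overlap between the genotypes, as for 14.3% of all genes tested. PIP1B was at 459 to 621 TPM in bro1-1 and 343 to 423 TPM in WT, a log2 difference of 0.51 (SE 0.186, 95% interval 0.14 to 0.87, adjusted p = 0.426). Gamma-TIP1 was at 370 to 384 TPM in bro1-1 and 195 to 355 TPM in WT, a log2 difference of 0.55 (SE 0.208, 95% interval 0.15 to 0.96, adjusted p = 0.435). The difference in delta-TIP3 was the largest of the 10, 1.77 on the log2 scale (SE 0.551, 95% interval 0.69 to 2.85), with an adjusted p of 0.359 by edgeR and 0.0330 by DESeq2, and the libraries overlapped. The root markers summed to 66.0 to 99.4 TPM in bro1-1 and 28.7 to 77.3 TPM in WT at that time, and their part in this difference was not tested.

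The interaction terms, which compare the ABA response of bro1-1 with that of WT, had no call among the 10 genes at 2 h or 4 h and none among all 20330 and 20480 genes tested, with 5.12% and 5.95% at an unadjusted p under 0.05 and 17 and 6 genes called by DESeq2. For PIP1E the response in bro1-1 exceeded that in WT by 0.62 at 2 h (95% interval -0.10 to 1.34, adjusted p = 0.923) and by 0.60 at 4 h (95% interval -0.12 to 1.31, adjusted p = 0.851) on the log2 scale. For gamma-TIP1 the terms were 0.53 (95% interval -0.19 to 1.25, adjusted p = 0.923) and 0.67 (95% interval 0.10 to 1.25, adjusted p = 0.830), and without WT mock replicate 2 and bro1-1 mock replicate 3 together, a choice made after seeing the data, they were 0.66 (adjusted p = 0.627) and 0.79 (adjusted p = 0.445). The terms of 8 of the 10 genes were positive at 2 h and 8 at 4 h. Over all genes tested, 10616 of 20330 were positive at 2 h and 10965 of 20480 at 4 h. Among the other aquaporins tested, 13 of 17 and 15 of 18 were positive. The highest term of the 10 genes was that of delta-TIP3 at either time, 0.85 (95% interval -1.004 to 2.70, adjusted p = 0.946) and 1.78 (95% interval -0.03 to 3.60, adjusted p = 0.846). At 4 h the term of PIP1A was 0.65 (95% interval -0.07 to 1.38, adjusted p = 0.847). For gamma-TIP2 the terms were 0.0030 at 2 h (95% interval -0.74 to 0.74) and 0.04 at 4 h (95% interval -0.69 to 0.77), and for delta-TIP1 0.08 (95% interval -0.98 to 1.13) and -0.05 (95% interval -0.81 to 0.71). A call in bro1-1 and none in WT, as for gamma-TIP1 and delta-TIP2 at 2 h, is not shown to be a difference between the genotypes.

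Of the 25 other genes of the aquaporin family, 17 passed the filter on low counts in WT at 2 h. There 4 were higher, all of them PIP2 genes, where 10.9% of all genes tested were higher. A further 5 were lower, of which 1 was a PIP2, 3 were NIP genes and 1 was a SIP gene, where 6.8% of all genes were lower. PIP2A (PIP2;1), a plasma membrane water channel, had the highest log2 fold change, 1.80 (SE 0.297, adjusted p = 0.00526), and NLM1 (NIP1;1), a channel of the NOD26-like subfamily, the lowest, -1.88 (SE 0.378, adjusted p = 0.0115). At 4 h in WT 1 was higher (PIP2D, or PIP2;5, 1.88, SE 0.193, adjusted p = 0.000554) and 4 were lower, with NLM1 at -2.34 (SE 0.364, adjusted p = 0.00308). The shares of all genes there were 13.5% higher and 7.41% lower. In bro1-1 3 were higher and 3 lower of 17 tested at 2 h (13.4% and 8.45% of all genes), and 3 higher and 1 lower of 18 tested at 4 h (15.5% and 8.24% of all genes). The median log2 fold change of those tested was 0.05 and -0.34 in WT and 0.36 and 0.27 in bro1-1. The 10 PIP1 and TIP genes held 75.7 ± 3.24% of the TPM of all 35 aquaporins in WT mock, 55.0 ± 2.65% at 2 h and 57.8 ± 3.28% at 4 h, and in bro1-1 77.0 ± 3.09%, 55.5 ± 2.95% and 58.2 ± 0.700% (SD, n = 3).

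Likeness of pattern was measured as Pearson's r of log2(CPM + 1), with CPM the counts scaled to library size, over the 18 libraries against 12672 genes with a mean of at least 10 CPM. It is a description only, because all the genes share the libraries and the ABA groups. Most like gamma-TIP2 were GRF8 (AT5G65430), which encodes a 14-3-3 protein (r = 0.984), AT4G23820 (0.983) and cICDH, a cytosolic isocitrate dehydrogenase (0.982). Most like delta-TIP1 were AT1G52190 (0.978), XTH4, which encodes a xyloglucan endotransglucosylase of the cell wall (0.973), and AT2G44530 (0.966). For PIP1E they were AT5G41460 (0.982), the protein kinase gene AT5G01820 (0.981) and GSTU5, a tau-class glutathione transferase (0.981). For PIP1B they were PIP2B (PIP2;2), another plasma membrane aquaporin (0.920), AT4G22290 (0.842) and AP2, a flower development factor (0.836). Among the 10 genes themselves the closest pair was gamma-TIP2 with delta-TIP1 (r = 0.982) and the most opposed was gamma-TIP2 with PIP1E (r = -0.865).

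A count of the core of the ABA-responsive element, the letters ACGTG on either strand, was made in the 500 bases before each gene start. It was found in 1 of the 10 genes, against 35.5% of 27443 protein-coding genes with a full window. The match began 62 bases before the start of gamma-TIP1, within the 30 bases at chr2:15445220-15445249 (TAIR10.1, plus strand). These bases are printed because they hold the 1 match among these promoters, with the core as read on that strand, CACGT, in capitals.
gamma-TIP1: gtcattatccgcCACGTagattggtcggtt
A match or its absence is a description of these letters and not of a bound site.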

How the data were processed

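Whole-seedling RNA-seq gave 1 table of gene-level values per library. Per the labels and the methods of the study, the authors removed ribosomal reads with Bowtie 2 v2.3.5.1 and estimated expected counts and TPM with RSEM v1.2.30, the deposited units used here. The genome build, annotation release, aligner settings and strand setting are not given in the sources used here. Deposited effective lengths, whose unit is bases, served only to check the order of levels as CPM per kb, which gave the same places in all 6 groups.

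Expected counts were rounded and tested with edgeR 4.0.16 in R 4.3.3 (filterByExpr, TMM factors, glmQLFit, glmQLFTest; Benjamini-Hochberg over all genes tested), with only the libraries of the groups compared. SE is the log2 fold change over the square root of F, and intervals given as 95% are 1.96 SE either side. They use the normal quantile and are narrower than the F test implies. An interval can thus leave out 0 where the unadjusted p is above 0.05. Calls needed an adjusted p under 0.05 and a log2 fold change beyond 1. The scripts were tested on simulated data. DESeq2 1.42.0, other size factors, no filter, no fold threshold, all 18 libraries in 1 fit, a replicate block and leaving out libraries were the alternatives. The samples were fitted as unpaired, since the labels name no pairing. Same-numbered libraries correlated at -0.442 to 0.547 in their deviations from group means, and libraries of different numbers at -0.550 to 0.598. Deviations within 3 libraries sum to 0 for each gene, so these values cannot decide whether the samples are paired. The named genes were the 10 members, the label checks, the called other aquaporins with the highest and lowest log2 fold change in WT, and the 3 genes most like 4 members. Members and lists were chosen with earlier results of these data known. Sequences are from RefSeq (TAIR10.1), where all 10 identifiers matched.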

Additional observations from a re-analysis of the deposited data

How the results depend on the processing

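The 85 single-gene results had 1150 alternative values. Of these, 1075 kept their direction and call, 28 lost a call, 24 gained one and 23 changed sign. Only 18 of the 85 results were calls, and the others had no call to lose. The alternative without the fold threshold keeps the same fit, so it could only add calls. Every member was counted in the ABA contrasts within a genotype. The comparisons of bro1-1 with WT under ABA and over all time points entered with PIP1A, PIP1B, PIP1E, gamma-TIP1 and delta-TIP3 only. The interactions entered with the same genes, and single-gene values of bro1-1 against WT in mock were left out. Of the 18 calls, 11 held under every alternative and 0 changed sign, and DESeq2, the other size factors, no filter and the fit of all 18 libraries lost 0 of them. The number of genes called from 2 h to 4 h in WT, 1 in the chosen fit, was 2 with DESeq2, 2 without the filter, 2 with all 18 libraries in 1 fit, 2 without the fold threshold and 0 with the replicate block. At 4 h against mock in bro1-1 it was 7 without the fold threshold, and bro1-1 against WT at 4 h it was 1 with DESeq2. The replicate numbers were taken as a label only, and the replicate block lost gamma-TIP2 in WT at 2 h (-1.09, adjusted p = 0.0668), PIP1B from 2 h to 4 h in WT (-0.97, adjusted p = 0.0906) and delta-TIP1 from 2 h to 4 h in bro1-1 (-1.39, adjusted p = 0.143), which left 0 calls there. The cause was not tested.

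With 1 library left out, the counts of calls ran from 1 to 5 (WT at 2 h), 0 to 2 (WT 2 h to 4 h), 3 to 6 (bro1-1 at 2 h) and 0 to 1 (bro1-1 2 h to 4 h). Over all genes, the same fits called 2424 to 4216, 246 to 861, 3728 to 4373 and 0 to 355 in turn. With all libraries these were 3491, 716, 4325 and 211. Uncalled values that crossed 0 ran, at 2 h against mock in WT, from -0.089 to 0.46 for PIP1B, -0.64 to 0.065 for PIP1C and -0.84 to 0.42 for delta-TIP3, and at 4 h from -0.19 to 0.18 for gamma-TIP1 (-0.012 with all 18 libraries in 1 fit) and -0.019 to 0.77 for delta-TIP2. From 2 h to 4 h they ran in WT from -0.68 to 0.026 for PIP1C and -0.070 to 0.21 for PIP1E, and in bro1-1 from -0.19 to 0.28 for PIP1A, -0.050 to 0.16 for PIP1E and -0.55 to 0.60 for delta-TIP3 (0.077 with the replicate block). delta-TIP3 in bro1-1 ran from -0.39 to 0.74 at 2 h and -0.16 to 0.56 at 4 h against mock. PIP1A in bro1-1 against WT at 2 h ran from -0.20 to 0.32. The interaction at 2 h ran from -0.11 to 0.40 for PIP1A and from -0.077 to 1.28 for delta-TIP3. Only the single-gene results counted above entered this list, so it leaves out the genotype and interaction values of the other members.

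Over all genes, DESeq2 called 1076 against 716 genes from 2 h to 4 h in WT, 690 against 211 in bro1-1, 73 against 6 for bro1-1 against WT at 2 h and 267 against 4 at 4 h. The replicate block left 2 of those 211, and leaving out 1 library gave 0 to 355. Without the fold threshold 1512 genes passed from 2 h to 4 h in WT, and 7898 and 8100 passed at 2 h and 4 h against mock in bro1-1, where 4325 and 4746 were called. With 3 libraries a group, p-values rest on few degrees of freedom.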
